A study of Homo sapiens with 28 samples.

Results

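The genes described here are 10 members of 2 families of epithelial surface glycoproteins, the transmembrane mucins MUC1, MUC4, MUC15, MUC16, MUC20 and MUC21 and the carcinoembryonic antigen genes CEACAM1, CEACAM5, CEACAM6 and CEACAM7. They were taken by name from RNA tables of 23533 genes and from the peak lists of the same cells. The members were chosen by their RPKM in these 4 groups, so the RNA values below describe the members and support no claim about them as a set. Of the 10 genes, 9 had a row in the RNA tables. The RNA of MUC1 was not analysed here, and MUC1 is described by its chromatin alone.

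The cells were EPC2, an immortalised human esophageal epithelial line, given IL-13 at 100 ng/ml together with vitamin D at 100 nM (the combination), IL-13 alone or vitamin D alone for 6 h, or left untreated. RNA was sequenced from 12 samples, 3 per group. The deposited tables give a single RPKM value per group (reads scaled to transcript length and to the library's total), so the spread between samples could not be computed here and the depth per sample is unknown. The labels do not say whether the 3 samples of a group were separate cultures. Chromatin came from 16 ChIP-seq libraries, 1 per condition. H3K27ac, H3K4me3 and H3K9ac, marks of active promoters and enhancers, were profiled in all 4 groups. STAT6, the transcription factor that IL-13 activates, was profiled with IL-13 and untreated, and VDR, the nuclear receptor for vitamin D, with vitamin D and untreated. All cells were of 1 line, so the results hold for that line.

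Transmembrane mucins span the apical membrane and carry a long extracellular stretch dense in O-linked sugars; together they form the glycocalyx, a hydrated coat that keeps microbes and other cells off the epithelium. CEACAM proteins are immunoglobulin-like adhesion molecules of the same surface. CEACAM1 crosses the membrane and has an inhibitory signalling tail, whereas CEACAM5, CEACAM6 and CEACAM7 are held by a lipid anchor. In stratified epithelia such as the esophagus, several of these genes are known as products of the upper, differentiated layers.

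The CEACAM genes lie on chromosome 19 and arose by duplication, and their start regions can be compared base by base. The 4 promoters below are from RefSeq (GRCh38.p14), each 300 bases, from 250 before to 50 after the start, written 5′ to 3′ on the gene's own strand. They are shown because the genes are related and CEACAM6 alone of the 4 rose with vitamin D. CEACAM1, CEACAM5 and CEACAM6 all fell with IL-13, and CEACAM7 passed no test. Capitals mark every match to TTCNNNNGAA or TTCNNNGAA, the palindromes that STAT factors can bind, and to AGGTCA, a half-site that nuclear receptors can bind, searched on both strands.
CEACAM1, chr19:42528432-42528731, minus strand: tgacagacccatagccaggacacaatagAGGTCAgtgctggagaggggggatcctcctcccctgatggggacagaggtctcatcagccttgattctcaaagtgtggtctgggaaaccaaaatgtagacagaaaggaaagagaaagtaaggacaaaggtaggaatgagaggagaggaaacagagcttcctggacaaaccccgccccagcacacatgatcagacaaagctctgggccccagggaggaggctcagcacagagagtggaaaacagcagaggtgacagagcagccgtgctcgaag
CEACAM5, chr19:41708376-41708675, plus strand: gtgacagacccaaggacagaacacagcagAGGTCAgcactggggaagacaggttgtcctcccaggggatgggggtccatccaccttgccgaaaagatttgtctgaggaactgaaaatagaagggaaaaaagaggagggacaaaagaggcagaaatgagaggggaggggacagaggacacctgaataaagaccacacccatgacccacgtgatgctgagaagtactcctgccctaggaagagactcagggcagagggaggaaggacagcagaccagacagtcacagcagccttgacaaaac
CEACAM6, chr19:41755280-41755579, plus strand: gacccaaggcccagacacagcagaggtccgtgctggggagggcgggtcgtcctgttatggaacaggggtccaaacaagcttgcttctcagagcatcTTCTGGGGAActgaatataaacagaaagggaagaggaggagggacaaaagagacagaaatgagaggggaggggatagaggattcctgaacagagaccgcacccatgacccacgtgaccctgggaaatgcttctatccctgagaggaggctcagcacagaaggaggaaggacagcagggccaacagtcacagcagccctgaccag
CEACAM7, chr19:41688221-41688520, minus strand: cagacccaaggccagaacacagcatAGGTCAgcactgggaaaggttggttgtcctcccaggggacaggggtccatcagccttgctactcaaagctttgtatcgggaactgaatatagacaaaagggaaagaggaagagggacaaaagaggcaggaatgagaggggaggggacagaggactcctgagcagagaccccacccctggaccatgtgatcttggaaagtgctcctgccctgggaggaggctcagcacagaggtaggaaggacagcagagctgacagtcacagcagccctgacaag
The 6 pairs of these promoters were 67.1% to 81.4% identical in global alignments, with CEACAM5 and CEACAM7 the closest pair. CEACAM6 held a TTCNNNNGAA match at bases 97 to 106 of its window, and the other 3 promoters held none. CEACAM1, CEACAM5 and CEACAM7 held an AGGTCA match near the 5′ end of the window, starting at base 29, 30 and 26 in that order of genes, and CEACAM6 held none. No marked matches overlapped. Over all 35116 RefSeq promoters of this length, 6.44% held TTCNNNNGAA, 7.66% held TTCNNNGAA and 13.8% held AGGTCA. A match is a description of the letters only. Other spellings of the half-site were not searched, so a promoter without AGGTCA may still hold another. Of the 10 members, 7 had a promoter in the RefSeq table; MUC15, MUC20 and MUC21 had no entry.

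CEACAM6 was the most abundant of the 9 genes with the combination and with vitamin D. It was also the 1 member that passed the test, given below, for a response to IL-13 that differed with vitamin D. Its RNA stood at 17.5 RPKM with the combination, 3.91 RPKM with IL-13, 16.3 RPKM with vitamin D and 7.95 RPKM in untreated cells. The level was high in both groups that received vitamin D and low in the IL-13 group. In the authors' deposited table CEACAM6 fell by 1.01 ± 0.07 on the log2 scale with IL-13 against untreated (adjusted p = 1.62e-42), the standard error being derived here from the deposited fold change and p-value. It rose by 1.08 ± 0.05 with vitamin D (adjusted p = 1.5e-101) and by 1.13 ± 0.06 with the combination (adjusted p = 8.48e-72) against untreated in the authors' deposited tables. Against vitamin D alone the combination differed by 0.05 ± 0.06 (0.504 was its adjusted p in the authors' deposited table; 95% interval -0.06 to 0.16), so that interval holds no fall of the size seen with IL-13 alone. Since these are bulk samples, fewer cells making a transcript and less of it per cell cannot be told apart, here and for every gene below.

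The difference between those IL-13 effects was tested directly. The effect of IL-13 on CEACAM6 was 1.06 ± 0.09 higher on the log2 scale in the presence of vitamin D than in its absence (95% interval 0.88 to 1.24; z test derived from the authors' deposited tables across 14734 genes, Benjamini-Hochberg adjusted p = 1.10e-27). CEACAM6 was the 1 member called of 7 tested, and over all genes 2.42% were called, 1.41% with a higher and 1.01% with a lower effect. MUC15 (0.31 ± 0.11, adjusted p = 0.162) and CEACAM5 (0.72 ± 0.29, adjusted p = 0.238) did not pass in the same test derived from the authors' deposited tables. Their 95% intervals of 0.09 to 0.53 and 0.16 to 1.29 lay wholly on the positive side. The unadjusted p of that z test was 0.00652 for MUC15 and 0.0122 for CEACAM5. The estimate was 0.12 for CEACAM1, 0.13 for MUC16, -0.05 for MUC20 and 0.15 for MUC21. The combination against IL-13 alone, also derived from the authors' deposited tables, gave a CEACAM6 log2 difference of 2.13 ± 0.08 (adjusted p = 3.70e-168).

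**Figure D1:**
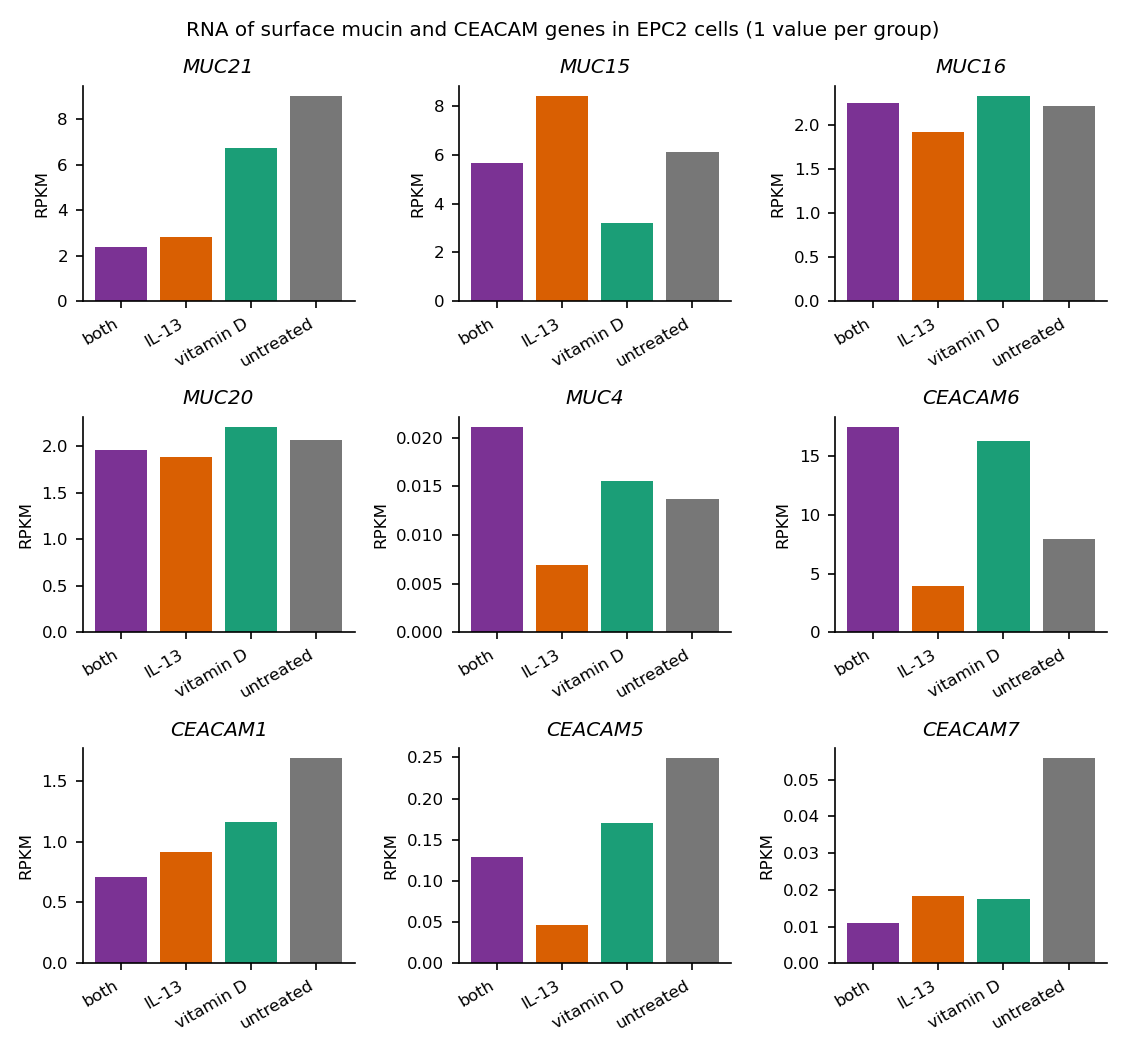
RPKM of the 9 members with an RNA row (vertical axes, each gene on its own scale) in cells given the combination ("both"), IL-13 or vitamin D and in untreated cells (horizontal axis); each bar is the authors' single value for a group, so there are no error bars. CEACAM6 stands at 17.5 and 16.3 RPKM in the groups with vitamin D, MUC21 at 2.39 and 2.82 RPKM in the groups with IL-13, and MUC4 and CEACAM7 stay under 0.06 RPKM in all 4 groups.

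Among the mucins, MUC21 fell the furthest. MUC21 (chromosome 6, 30951485 to 30957675 in hg19, plus strand), also called epiglycanin, is a transmembrane mucin of squamous epithelia. Its RNA stood at 2.39 RPKM with the combination, 2.82 RPKM with IL-13, 6.74 RPKM with vitamin D and 9.02 RPKM in untreated cells. In the authors' deposited tables it fell by 1.87 ± 0.08 on the log2 scale with the combination (adjusted p = 3.95e-119), by 1.64 ± 0.07 with IL-13 (adjusted p = 7.58e-109) and by 0.36 ± 0.06 with vitamin D (adjusted p = 2.36e-07), each against untreated. Where vitamin D was present in both arms, IL-13 still went with a lower level, by a log2 difference of -1.49 ± 0.08 (adjusted p = 3.66e-80 in the authors' deposited table). The comparison of the combination with IL-13 alone, derived from the authors' deposited tables, gave -0.24 ± 0.08 (adjusted p = 0.0234), a call that did not hold at an adjusted p of 0.01.

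MUC15, a smaller transmembrane mucin, went the other way with IL-13. Its RNA stood at 5.68 RPKM with the combination, 8.40 RPKM with IL-13, 3.23 RPKM with vitamin D and 6.11 RPKM in untreated cells. IL-13 and vitamin D thus sat on opposite sides of the untreated level, and the combination lay close to it. MUC15 rose by 0.43 ± 0.07 with IL-13 against untreated (adjusted p = 1.28e-09) and by 0.74 ± 0.09 with the combination against vitamin D (adjusted p = 2.77e-14), in the authors' deposited tables. It fell by 0.85 ± 0.07 with vitamin D against untreated (adjusted p = 1.37e-30 in the authors' deposited table) and, in the derived comparison, by 0.53 ± 0.09 with the combination against IL-13 (adjusted p = 2.39e-08). The combination against untreated gave -0.10 ± 0.08 (adjusted p = 0.402 in the authors' deposited table; 95% interval -0.27 to 0.06). MUC15 lies on the minus strand of chromosome 11 (26580579 to 26593815), inside the gene ANO3, which runs on the plus strand and was listed at no more than 0.00435 RPKM in any group.

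CEACAM1, the member with the inhibitory tail, was lower under every treatment. Its RNA stood at 0.712 RPKM with the combination, 0.915 RPKM with IL-13, 1.17 RPKM with vitamin D and 1.69 RPKM in untreated cells. It fell by 1.19 ± 0.12 with the combination (adjusted p = 3.65e-21), by 0.81 ± 0.12 with IL-13 (adjusted p = 1.02e-10) and by 0.44 ± 0.11 with vitamin D (adjusted p = 0.000291) against untreated in the authors' deposited tables. The combination against vitamin D gave -0.69 ± 0.13 (adjusted p = 7.43e-07 in the authors' deposited table), and against IL-13 the derived value was -0.38 ± 0.14 (adjusted p = 0.0264), which did not hold at 0.01.

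The remaining members were low or changed little. CEACAM5, the carcinoembryonic antigen itself, stood at 0.129 RPKM with the combination, 0.0462 RPKM with IL-13, 0.170 RPKM with vitamin D and 0.249 RPKM in untreated cells. It fell by 0.99 ± 0.19 with IL-13 (adjusted p = 3.13e-06) and by 0.72 ± 0.24 with the combination (adjusted p = 0.00979) against untreated in the authors' deposited tables. The size for IL-13 is uncertain at this level. The log2 ratio of RPKM was -1.26 with a pseudocount of 0.1 and -0.26 with a pseudocount of 1. Pseudocounts pull such low values toward no change, and the plain ratio of IL-13 to untreated RPKM was 0.185, a larger fall than these. MUC16, the source of the tumour marker CA125, stood at 2.25 RPKM with the combination, 1.92 RPKM with IL-13, 2.33 RPKM with vitamin D and 2.23 RPKM in untreated cells. It fell by 0.22 ± 0.06 with IL-13 against untreated (adjusted p = 0.00056 in the authors' deposited table) and passed no other deposited comparison; against IL-13 the combination was higher by 0.25 ± 0.07 in the derived comparison (adjusted p = 0.00228).

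MUC20, known as a partner of the receptor MET, stood at 1.96 RPKM with the combination, 1.89 RPKM with IL-13, 2.21 RPKM with vitamin D and 2.07 RPKM in untreated cells, and passed none of the 6 comparisons; in the authors' deposited tables its unadjusted p was 0.0434 with vitamin D against untreated and 0.0359 with the combination against vitamin D. MUC4, known as a partner of the receptor ERBB2, reached 0.0211 RPKM at most, and CEACAM7 0.0558 RPKM at most; neither passed any test (the lowest unadjusted p in the authors' deposited tables was 0.222 for MUC4 and 0.0207 for CEACAM7), and the authors' adjusted p was 1 for both genes in the comparison of the combination with vitamin D. CEACAM5, CEACAM6 and CEACAM7 are close paralogs and MUC20 has a duplicated copy nearby, and no source used here says how reads that fit more than 1 copy were counted, so the separate levels of these genes are uncertain.

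Counted over the members, IL-13 against untreated gave 6 called of 9 tested at an adjusted p of 0.05, 1 higher and 5 lower, where 26.3% of all genes tested were called, 12.3% higher and 14.0% lower. Vitamin D against untreated gave 4 of 9, 1 higher and 3 lower, against 32.5% of all genes (17.5% higher and 15.1% lower). The combination against untreated gave 4 of 9, 1 higher and 3 lower, against 31.7% (16.0% higher and 15.7% lower), and the combination against vitamin D gave 3 of 7, 1 higher and 2 lower, against 33.2% (16.4% higher and 16.9% lower). In the derived comparison of the combination with IL-13, 5 of 7 were called, 2 higher and 3 lower, against 24.1% of all genes (12.3% higher and 11.9% lower). The members were chosen with these contrasts in view, so nothing is read from the counts. The 3 comparisons with untreated cells share those samples. The median log2 difference over the members tested was -0.10 with the combination, -0.24 with IL-13 and -0.27 with vitamin D, beside medians over all genes tested of 0.00 in each of the 3 comparisons with untreated.

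**Figure D2:**
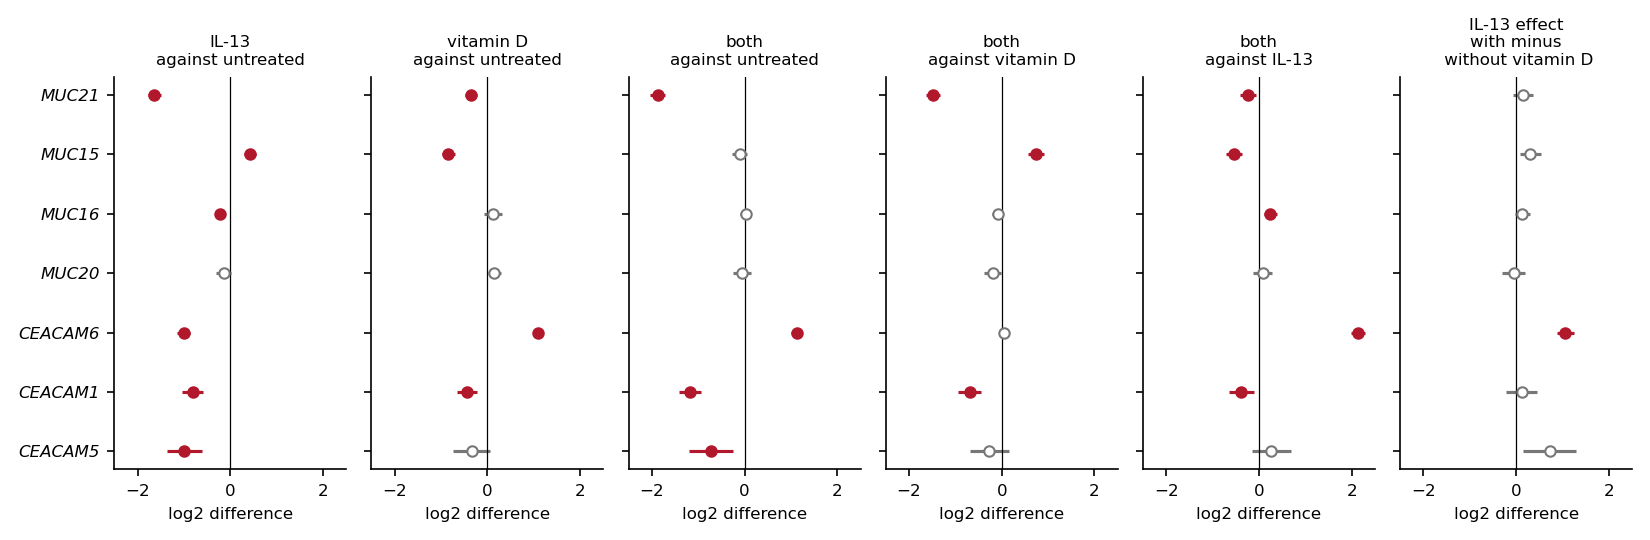
Log2 differences (horizontal axes) of the 7 members tested in all 6 comparisons (rows), with bars for the 95% interval from the derived standard error; filled red points passed an adjusted p of 0.05 and open points did not. The first 4 panels are the authors' deposited fold changes and the last 2 are derived; CEACAM6 sits at 2.13 for the combination ("both") against IL-13 and alone passes the difference of IL-13 effects, at 1.06.

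For each member that varied by at least 1 on the log2 scale across the groups and reached 1 RPKM, the 3 genes with the most similar profile were sought among 709 genes with the same span, by Euclidean distance between centred log2 RPKM values over the 4 groups. For MUC21 they were CYP4F22 (distance 0.098), SDR9C7 (0.203) and TGM5 (0.282). For CEACAM6 the nearest gene, AKR1C1, lay at 0.358, followed by LOC100130673 at 0.370 and PTAFR at 0.424. For MUC15 they were BCL11B (0.078), OSBPL6 (0.160) and BCL6 (0.167), and for CEACAM1 they were SCG5 (0.036), ESPL1 (0.080) and KIF7 (0.086). CEACAM6 thus had the most distant nearest gene of these 4 members. It also had the widest span across the groups, 2.13 beside 1.87 for MUC21, and the distance was not scaled for span. With 4 group values per gene these distances are a description.

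Mucins work through their sugars, and 4 further gene lists place the members among their pathway. Of 30 enzymes that start and extend mucin-type O-glycans, 23 reached 1 RPKM. Against untreated, 8 of 26 tested were higher and 10 lower with the combination, 4 of 25 higher and 8 lower with IL-13, and 10 of 25 higher and 3 lower with vitamin D; with the combination against vitamin D, 6 of 25 were higher and 11 lower, all by the adjusted p of the authors' deposited tables. Over all genes tested, 16.0% were higher and 15.7% lower with the combination, 12.3% higher and 14.0% lower with IL-13, and 17.5% higher and 15.1% lower with vitamin D, against untreated, and 16.4% higher and 16.9% lower with the combination against vitamin D. The list medians lay between -0.05 and 0.06. GCNT3, which makes the branched core 2 and core 4 O-glycans of mucins, stood at 24.2 RPKM with the combination, 5.32 RPKM with IL-13, 5.36 RPKM with vitamin D and 0.969 RPKM in untreated cells. Each agent alone raised it, by 2.23 with IL-13 (adjusted p = 1.15e-94) and 2.37 with vitamin D (adjusted p = 1.8e-115) on the log2 scale, and the combination by 4.53 (adjusted p listed as 0), against untreated in the authors' deposited tables.

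FUT6 and ST6GALNAC1, which add terminal sugars, went in opposite directions with the 2 agents. FUT6, a fucosyltransferase of Lewis-type structures, stood at 1.19 RPKM with the combination, 0.816 RPKM with IL-13, 3.18 RPKM with vitamin D and 2.07 RPKM in untreated cells. In the authors' deposited tables it fell by 1.23 with IL-13 (adjusted p = 3.32e-24) and rose by 0.65 with vitamin D (adjusted p = 1.09e-12) against untreated. ST6GALNAC1, the sialyltransferase that caps the first sugar and stops extension, stood at 0.653 RPKM with the combination, 0.512 RPKM with IL-13, 2.32 RPKM with vitamin D and 1.14 RPKM in untreated cells. It fell by 0.95 with IL-13 (adjusted p = 9.48e-09), rose by 0.99 with vitamin D (adjusted p = 2.7e-16) and was lower by 1.68 with the combination than with vitamin D (log2 difference -1.68, adjusted p = 1.62e-37), in the authors' deposited tables.

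Few of the other mucin and CEACAM genes were expressed. Of 16 secreted and other mucins, 13 had a row and 2, CD164 and OVGP1, reached 1 RPKM. In the authors' deposited tables, 1 of 5 tested was lower with the combination against untreated (MUC22, log2 difference -0.78, under 0.05 RPKM in all groups). With IL-13 0 of 4 were called (2 at an unadjusted p of 0.05) and with vitamin D 0 of 5 (0), against untreated. The combination against vitamin D gave 1 of 4, higher (CD164, log2 difference 0.17). Over all genes tested, 31.7% were called with the combination, 26.3% with IL-13 and 32.5% with vitamin D against untreated. The share was 33.2% with the combination against vitamin D. With so few genes tested, nothing is read from these counts. Of the gel-forming mucins, MUC2, MUC5B and MUC6 were under 0.006 RPKM in all groups. MUC3A, MUC5AC and MUC19 of this list had no row, so nothing is known here of their RNA. Of 14 other CEACAM and PSG genes, 1, CEACAM19, reached 1 RPKM, with at least 7.38 RPKM in each group. CEACAM19 was the 1 gene of that list called. In the authors' deposited tables it fell by 0.23 with the combination (adjusted p = 0.0233) and by 0.37 with IL-13 (adjusted p = 2.75e-06) against untreated. It fell by 0.34 with the combination against vitamin D (adjusted p = 0.000249 in the authors' deposited table). That was 1 of 6, 1 of 5 and 1 of 5 genes tested, in that order, beside the shares of all genes given above. With vitamin D against untreated 0 of 5 were called. Of 10 proteases that release surface mucins and proteins that bind them, 10 reached 1 RPKM, and against untreated, in the authors' deposited tables, 1 was higher and 3 lower with the combination, 2 higher and 5 lower with IL-13, and 4 higher and 3 lower with vitamin D, where 31.7%, 26.3% and 32.5% of all genes tested were called in that order; with the combination against vitamin D 4 were higher and 3 lower, where 33.2% were called. Among them ERBB2, the receptor that MUC4 is known to bind, was listed at 31.3 RPKM with the combination, 32.0 RPKM with IL-13, 50.3 RPKM with vitamin D and 52.0 RPKM in untreated cells.

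Squamous markers defined the cells. All 6 squamous genes reached 1 RPKM, with summed levels of 15998 to 18818 RPKM over the groups, most of it KRT5 and KRT14. Single markers of the list differed between the groups. KRT4 stood at 293.0 RPKM with the combination, 63.8 RPKM with IL-13, 241.6 RPKM with vitamin D and 64.3 RPKM in untreated cells, and CRNN at 71.8, 27.2, 88.0 and 50.8 RPKM in the same order of groups; like CEACAM6, both were higher in the 2 groups with vitamin D than in the other two. KRT13 stood at 113.7 RPKM with the combination, 96.7 RPKM with IL-13, 253.7 RPKM with vitamin D and 201.5 RPKM in untreated cells, lower in the 2 groups with IL-13, as was MUC21. The rest of the list followed neither pattern. TP63 stood at 58.3, 72.3, 37.6 and 50.7 RPKM and KRT14 at 6196.2, 8019.7, 5849.7 and 7429.9 RPKM, in the same order of groups. Both were highest with IL-13 and lowest with vitamin D. KRT5 ranged from 9265.2 RPKM with the combination to 10538.5 RPKM with IL-13. The part of these markers in the members' changes was not tested. Of 8 columnar and goblet markers, KRT8, KRT18 and AGR2 reached 1 RPKM, and CDX2 was listed at 0 in all groups; their sum was 270 to 289 RPKM. Neutrophils also carry CEACAM1 and CEACAM6, and of 6 leukocyte markers 1, S100A12, reached 1 RPKM; the sum over the list was 17.5 RPKM with the combination, 18.4 RPKM with IL-13, 26.1 RPKM with vitamin D and 29.1 RPKM in untreated cells, with MPO listed at 0 in all groups and PTPRC at no more than 0.00214 RPKM. The part of S100A12 and of the lists below in the members' changes was not tested. The fibroblast list had 1 of 4 genes at 1 RPKM, COL1A1, and summed to 5.99 to 15.4 RPKM, with COL1A2 at no more than 0.037 RPKM. The endothelial list had 1 of 4, VWF, and summed to 0.534 to 3.17 RPKM, with PECAM1 at no more than 0.0022 RPKM.

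A promoter region here is a called region that the authors' lists place in the promoter class of a gene; the listed summits of a region were merged. Of the 6 members that peaked between 1 and 20 RPKM (MUC15, MUC16, MUC20, MUC21, CEACAM1 and CEACAM6), 2 had an H3K27ac promoter region in each of the 4 groups, CEACAM1 and MUC20. Among all 8368 genes that peaked at that level the share was 91.3% with the combination, 90.7% with IL-13, 91.4% with vitamin D and 93.3% in untreated cells. For H3K4me3, CEACAM1 had a region with the combination, with vitamin D and in untreated cells, and no member had one with IL-13, against 91.9%, 92.1%, 91.9% and 91.7% of genes in the combination, vitamin D, untreated and IL-13 libraries. For H3K9ac, 2 of 6 members had a region with the combination, 1 with IL-13, 2 with vitamin D and 1 in untreated cells, against 88.3%, 88.1%, 88.6% and 87.9% of genes in that order.

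The rule that named the members covers their peaks as well as their RNA, so these shares are not independent of the choice. The 6 genes are also few, and no test was made. Counting any H3K27ac summit within 10 kb of the gene start, a choice made after seeing the data, gave 3 of 6 members with the combination, 3 with IL-13, 4 with vitamin D and 3 in untreated cells, where 93.8%, 93.2%, 93.7% and 95.3% of genes at this level had one. The 3 members under 0.3 RPKM, MUC4, CEACAM5 and CEACAM7, had no promoter region in any of the 12 histone libraries.

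**Figure D3:**
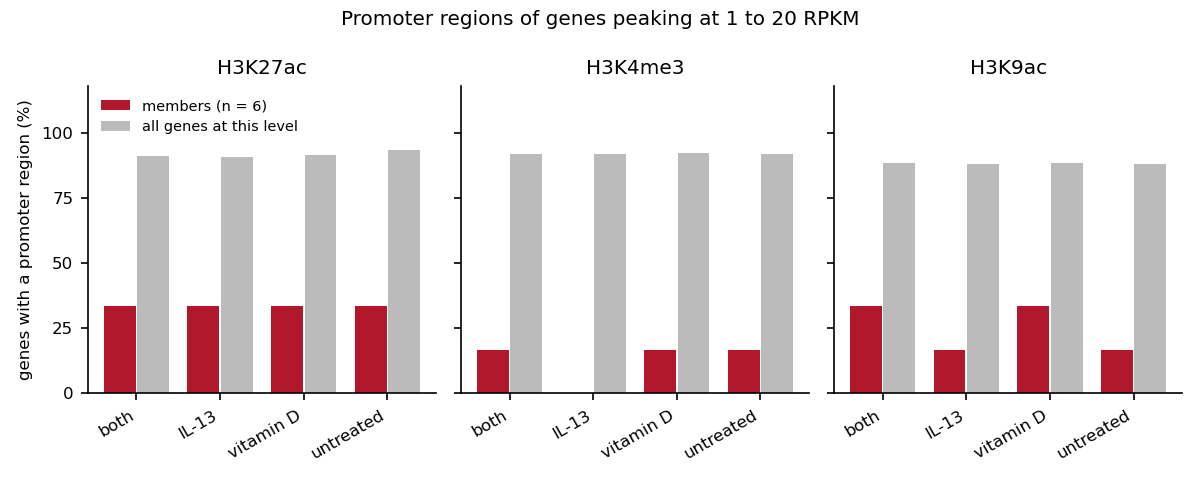
Share of genes with a called promoter region (vertical axis, percent) for H3K27ac, H3K4me3 and H3K9ac in the 4 groups (horizontal axis, "both" being the combination), for the 6 members peaking at 1 to 20 RPKM (red) and all 8368 genes at that level (grey). Each bar is 1 library; between 0 and 2 of the 6 members had a region, while the grey bars lie between 87.9% and 93.3%.

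MUC1, a transmembrane mucin of many epithelia, had the strongest H3K27ac and H3K4me3 promoter regions of the 10 genes in each of the 4 groups. Its start (chromosome 1, position 155162706, minus strand, hg19) carried H3K27ac with a fold enrichment of 12.1 with the combination, 11.9 with IL-13, 15.0 with vitamin D and 19.2 in untreated cells. Fold enrichment is the authors' value and compares pileup, the height of stacked fragments, with a background. In the histone libraries it equalled pileup plus 1 over background plus 1, with a nearly constant background within each library. For H3K27ac that background was 0.512 with IL-13 and 1.40 in untreated cells, so fold enrichment also depends on the library. H3K4me3 reached 20.9, 14.5, 18.4 and 18.5, and H3K9ac 5.46, 4.71, 6.81 and 8.64, with the combination, IL-13, vitamin D and no treatment in that order. The H3K4me3 region also covers the microRNA gene MIR92B, to which the authors assigned it as well. Its highest summit lay 2.37 kb upstream of the MUC1 start with the combination and 2.25 kb with IL-13, beside MIR92B. With vitamin D it lay 0.973 kb and in untreated cells 1.01 kb upstream. The H3K4me3 values are thus not all from the same place, and no called H3K4me3 region reached the MUC1 start itself. A STAT6 region was called at the MUC1 promoter with IL-13 (chr1:155163049-155163535), with its summit 468 bases upstream of the start, a pileup of 19 and a fold enrichment of 4.94, and none was called there in untreated cells. The STAT6 library with IL-13 listed 4802 regions in all, against 1126 in untreated cells. Among all genes at 1 to 20 RPKM, 1.15% had a STAT6 promoter region with IL-13 and 0.167% in untreated cells.

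The H3K27ac library of untreated cells stands apart, with 91881 regions and a median summit pileup of 16, where the 3 treated libraries had 67183 to 72629 regions and medians of 9 to 12. Over the 33646 regions called in all 4 H3K27ac libraries, the median log2 ratio of fold enrichment to untreated was -0.50 with the combination, -0.53 with IL-13 and -0.32 with vitamin D. Values of single regions below are given beside these medians. All are 1 library each and were not tested.

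CEACAM1 had a promoter region of H3K27ac and of H3K9ac in all 4 groups. H3K27ac fold enrichment was 7.67 with the combination, 7.27 with IL-13, 10.4 with vitamin D and 12.9 in untreated cells, log2 ratios to untreated of -0.75, -0.83 and -0.31 for the 3 treatments in that order. H3K9ac was 6.82, 6.73, 7.49 and 5.76. H3K4me3 was weak, with fold enrichments of 5.21 with the combination, 4.29 with vitamin D and 4.80 in untreated cells and no region called with IL-13. A VDR region was called with vitamin D, 3.91 kb upstream of the start (chr19:43036470-43036632), with a fold enrichment of 6.24, and none in untreated cells. VDR gave 9224 regions with vitamin D, against 1828 in untreated cells.

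CEACAM6 (chromosome 19, 42259398 to 42276113 in hg19) had no promoter region of any mark in any group. The regions assigned to it were 2 H3K27ac regions over exons in untreated cells, with fold enrichments of 5.42 and 4.17, and 1 in an intron with vitamin D, at 4.62. Past the end of the gene lay a larger H3K27ac region that the authors assigned to the next gene, CEACAM3, whose RNA was listed at no more than 0.0206 RPKM. In untreated cells it spanned 1.41 to 4.22 kb past the end of CEACAM6. Its fold enrichment was 8.31 with the combination, 5.95 with IL-13, 10.4 with vitamin D and 18.4 in untreated cells, and the pileup was 12, 8, 17 and 43. The log2 ratio to untreated was -1.14 with the combination, -1.63 with IL-13 and -0.82 with vitamin D. Of the regions called in all 4 libraries, 3.55%, 0.122% and 5.86% had a ratio as low, in the same order of treatments.

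The enrichment at this place ranked untreated, vitamin D, the combination, then IL-13, while untreated cells had the third highest RNA. The H3K27ac regions at the starts of MUC1 and CEACAM1 ranked in the same order. So did the median summit pileups of the libraries, at 16, 12, 10 and 9. The order is thus not particular to this place, and its relation to the RNA was not tested. VDR regions were called in the same stretch with vitamin D and not in untreated cells. They lay 2.45 to 2.60 kb past the gene end (chr19:42278565-42278711, fold enrichment 5.51), inside the H3K27ac region, and 7.13 to 7.65 kb past it (chr19:42283238-42283767, fold enrichment 8.004), outside it. No STAT6 region was called there with IL-13 or in untreated cells. H3K9ac was called there with IL-13, at 4.71, and with vitamin D, at 5.45 and 3.40, and H3K4me3 in none of the 4 groups. This place was picked after its values were seen, and which gene it acts on was not measured.

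**Figure D4:**
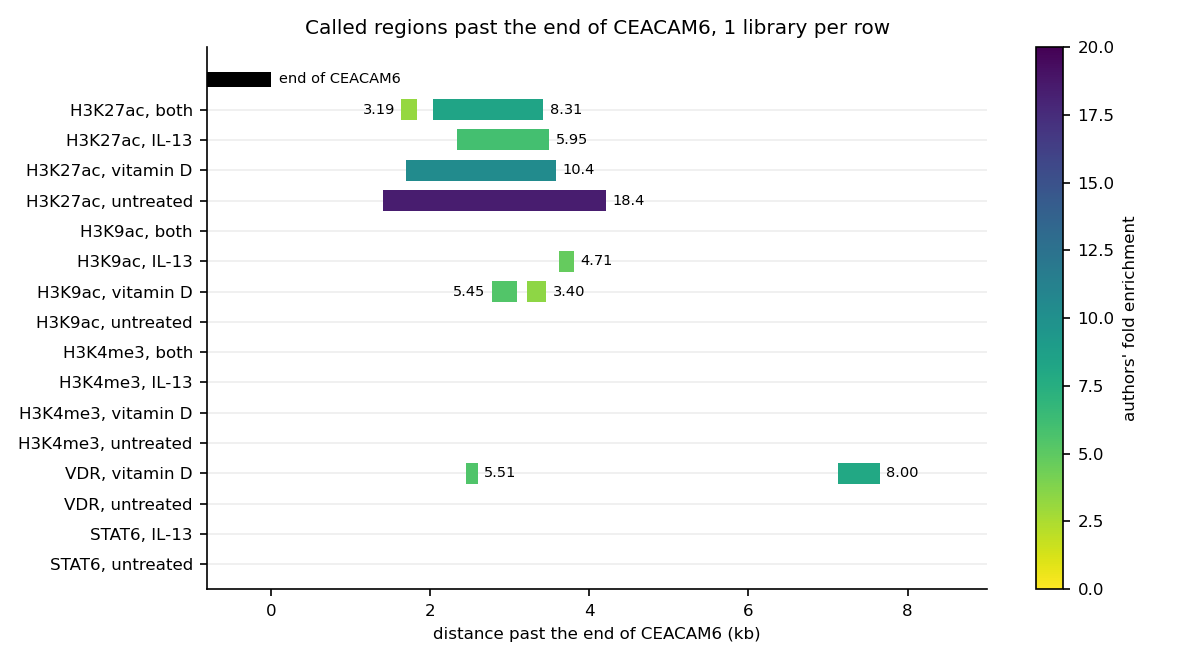
Called regions past the end of CEACAM6 (horizontal axis, kb from the gene's end; the black bar marks the last part of the gene) in each library (rows, "both" being the combination), coloured and labelled by the authors' fold enrichment. The H3K27ac region has 8.31, 5.95, 10.4 and 18.4 from the top row down, and VDR regions of 5.51 and 8.004 are called with vitamin D and none in untreated cells.

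MUC15 had no region assigned to it in any library. Inside ANO3, about 6 to 8 kb before the start of MUC15, H3K27ac was called in all 4 groups, with a top fold enrichment of 4.47 with the combination, 7.94 with IL-13, 6.36 with vitamin D and 9.60 in untreated cells. The log2 ratios to untreated were -1.10, -0.27 and -0.59 with the combination, IL-13 and vitamin D. Further out, 48.9 kb before the start, a STAT6 region was called with IL-13 (chr11:26642246-26643014, pileup 24, fold enrichment 6.18) and none in untreated cells. It overlapped an H3K27ac region called in all 4 groups, with a fold enrichment of 10.2 with the combination, 7.94 with IL-13, 6.36 with vitamin D and 8.35 in untreated cells. These log2 ratios, 0.29 with the combination, -0.07 with IL-13 and -0.39 with vitamin D, lie beside medians of -0.50, -0.53 and -0.32 over all shared regions.

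MUC21 is listed on a chromosome 6 haplotype in the RNA tables, and regions on that sequence could have been lost. Of 211 genes listed on such haplotypes, 54.0% to 61.6% had a promoter region in the 12 histone libraries. The share was 54.7% to 64.6% of the 996 genes listed on chromosome 6. In the H3K4me3 libraries alone it was 57.8% to 58.8% of the haplotype genes, against 64.1% to 64.6%. VARS2, listed on the same haplotype as MUC21, had promoter regions in all 12 histone libraries. Whether regions of MUC21 itself were lost was not tested. The regions assigned to MUC21 were about 28 kb upstream of its start. They were H3K4me3 in all 4 groups, at 5.21 with the combination, 4.35 with IL-13, 5.52 with vitamin D and 6.85 in untreated cells, where the untreated region lay beside those of the 3 treated libraries without overlapping them, and H3K27ac at 3.31 with IL-13 and 2.92 in untreated cells. No region of any mark was assigned at its start, and no STAT6 or VDR region was called within 50 kb of it.

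MUC20 had a weak promoter-class H3K27ac region about 3 kb before its listed start, at 3.83 with the combination, 5.29 with IL-13, 4.04 with vitamin D and 4.59 in untreated cells, and an H3K9ac region there with the combination (4.09) and with vitamin D (4.09). MUC16, expressed at about 2 RPKM in every group, had 1 region in all, H3K9ac over an exon with IL-13 (4.71), and MUC4 had 1, H3K9ac in an intron with the combination (4.78). CEACAM5 and CEACAM7 had none. In all, 53 histone regions were assigned to the members over the 12 libraries, of which 11 had a −log10 q of at least 10, and 2 STAT6 or VDR regions were assigned, those of MUC1 and CEACAM1.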

How the data were processed

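The members and gene lists were chosen with earlier results of these data known. Per the file headers, the 4 deposited RNA tables give 1 RPKM per group, a log2 fold change, a p-value and an adjusted p-value from the authors; no source used here names the test behind them or the read depth, so no precision follows from depth. An adjusted p of 1 was read as not tested. The table whose name pairs IL-13 with the combination in fact pairs vitamin D with it, and was used so: its first RPKM column equals the vitamin D column for 23533 of 23533 genes. A standard error was taken as the size of a deposited fold change over the z value of its p-value. The combination against IL-13 was derived as a difference of tables, with a variance built from those of the tables and no lower than their mean, and the difference of IL-13 effects with the sum of variances. Genes on which the tables disagreed by over 0.5 were left out, and z tests were adjusted by Benjamini-Hochberg over 14734 genes. The derived z tests were tested on simulated data in which the tables had equal variances and did not disagree. The rules for leaving genes out were thus not tried there.

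Per the file headers, each of the 16 deposited peak lists gives a pileup signal, the authors' fold enrichment ratio, a −log10 p and a −log10 q. The submitters' processing notes name MACS2, Bowtie, STAR, SAMtools and Trim Galore, without versions or roles, and the build hg19 (GRCh37). Summits sharing a start and end were merged into regions; the VDR library with vitamin D had been scaled (0.0955% whole pileups). Named genes were the 10 members, listed genes with an adjusted p up to 0.05 and a log2 change of at least 1, and the 3 nearest profiles; a few others were named after their values were seen. Python 3.11.15 tools used were pandas 2.3.3, scipy 1.17.1, statsmodels 0.14.6 and Biopython 1.88. Alternatives are given in the closing section.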

Additional observations from a re-analysis of the deposited data

Results flagged for a closer look

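The effect of IL-13 on CEACAM6 RNA was higher by 1.06 on the log2 scale with vitamin D than without it (z test derived from the authors' deposited tables across 14734 genes, adjusted p = 1.10e-27). It drew attention because the same contrast differed between cells with and without vitamin D: the combination differed from vitamin D by 0.05, and IL-13 from untreated by -1.01, in the authors' deposited tables. The cause was not tested.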

How the results depend on the processing

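No paired analysis was possible because the RNA tables used here hold 1 value per group and each ChIP condition 1 library; for the same reason no sample could be left out in turn. The counts of members called in the 4 deposited comparisons, and the call of CEACAM6 for the difference of IL-13 effects, kept within 1.5 times under each alternative run. For the combination against IL-13, 3 members (CEACAM6, MUC15 and MUC16) were called at an adjusted p of 0.01 and 3 with the plain sum of the variances, where 5 were called as reported; MUC21 and CEACAM1 dropped out under both. Of 36 deposited fold changes, 33 lay within 1 derived standard error of the RPKM log2 ratio with a pseudocount of 0.1 and 15 with a pseudocount of 1, and no called change reversed. A −log10 q of at least 10 left 11 of 53 histone regions and 0 of 2 STAT6 and VDR regions. Counting STAT6 and VDR summits within 50 kb of a gene start gave 5. At the H3K27ac region past the end of CEACAM6, the pileup over each library's median, an alternative chosen after seeing the data, gave log2 ratios to untreated of -1.16 with the combination, -1.60 with IL-13 and -0.92 with vitamin D; relative to the median of shared regions they were -0.65, -1.10 and -0.50. With pileups of 4 to 12 at many member regions, regions absent from a list were not detectable at this depth and may be present.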
